A study of Mus musculus and Homo sapiens with 81 samples.

Results

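B16 cells, a mouse melanoma line, were compared after 48 h with TNFa alone and after 48 h with IFNg and TNFa together, so the comparison shows what IFNg added in cells that were already given TNFa. The cells expressed Cas9 and carried Bro3, a guide RNA that targets no gene, and are called control cells here. The TNFa group held 3 libraries of cells given 10 ng/mL TNFa, and the IFNg+TNFa group held 3 libraries of cells given 100 ng/mL IFNg with 10 ng/mL TNFa. These 6 libraries were chosen by their treatment and guide labels from 81 in the series, and no measured value was used to choose them. Cells of the genotype labelled Ptpn2ko, which carried the guide Ptpn2sg3 against Ptpn2 and are called Ptpn2-null here, were given the same treatments. Control cells given vehicle (PBS with bovine serum albumin) or IFNg alone, also for 48 h, completed the set of groups used here, again with 3 libraries each. Each genotype rested on 1 guide, and the labels do not say whether the replicates were separate cultures, so a p-value here covers no more than the spread of these libraries, which may be technical.

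IFNg is a cytokine of activated T cells and natural killer cells. Its receptor acts through the kinases JAK1 and JAK2 on transcription factors of the STAT family, which bind GAS elements and induce IRF1. IRF1 and STAT complexes then act on ISRE elements of genes for antigen presentation, antiviral defence and chemokines. TNFa signals through its receptors to NF-kB, whose dimers bind kB sites and induce inflammatory genes and their own inhibitors. In melanoma cells both cytokines are known to act on antigen presentation, growth and pigment genes.

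The 6 libraries held 3498860 to 5632938 counts over 23336 genes, of which 11726 had enough counts across the B16 libraries to be tested. Levels are given per library as CPM, a library's counts scaled by its TMM-normalized size, which does not correct for gene length, so levels are compared between libraries and not between genes. Differences between groups are given as a log2 fold change with its SE, from the quasi-likelihood test of edgeR with 3 libraries a group, and a gene is called where its Benjamini-Hochberg adjusted p over all tested genes was under 0.05. Every value written with ± SE below is on this log2 scale. The SE was taken as the size of the fold change over the root of F. For genes with almost no counts in one group it can be smaller than the counting error. None of the 6 libraries stood apart from its group by its scatter around the group mean. The melanocyte lineage markers Mitf, Sox10, Tyr, Tyrp1, Dct, Pmel and Mlana were all expressed, with summed levels of 22146 to 22325 CPM under TNFa and 12441 to 13088 CPM under IFNg+TNFa. Of 10 leukocyte markers 6, Ptprc among them, were at 0 in all 6 libraries, and only Cd68, a lysosomal gene, was tested and was higher, at 3.80 to 5.81 CPM and 14.7 to 17.7 CPM. The tested fibroblast markers (2 of 7, with Dcn and Thy1 at 0) summed to 34.8 to 38.3 CPM under TNFa and 19.5 to 22.1 CPM under IFNg+TNFa, and the tested endothelial markers (2 of 5, with Cdh5 and Kdr at 0) to 2.71 to 5.60 and 4.16 to 6.19 CPM. No keratinocyte or epithelial marker was tested, 4 of 6 were at 0, and the others held 17 counts over the TNFa libraries and 11 over the IFNg+TNFa libraries. Of 6 ribosomal protein genes 4 were called lower, and of 6 housekeeping genes 4 were called lower and 1 higher; whether RNA quality had a part in any result was not tested. In bulk RNA a lower share of cells of a type and less RNA per cell cannot be told apart, and this holds for every level given here.

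With IFNg added to TNFa, 7073 of the 11726 genes were called (60.3% of those tested). Of these, 3602 were higher (30.7%) and 3471 lower (29.6%). The change was at least 2-fold in 1071 genes that were higher (9.13%) and 798 that were lower (6.81%). The median log2 fold change over all tested genes was 0.007. In the plot of fold change against abundance the increases reach further from 0 than the decreases. A share of called genes near 60.3% is the background for any group of genes described here. How many of all tested genes had no overlap between the groups was not counted. A statement that groups did not overlap therefore describes the libraries of the named gene and has no background beside it.

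**Figure D1:**
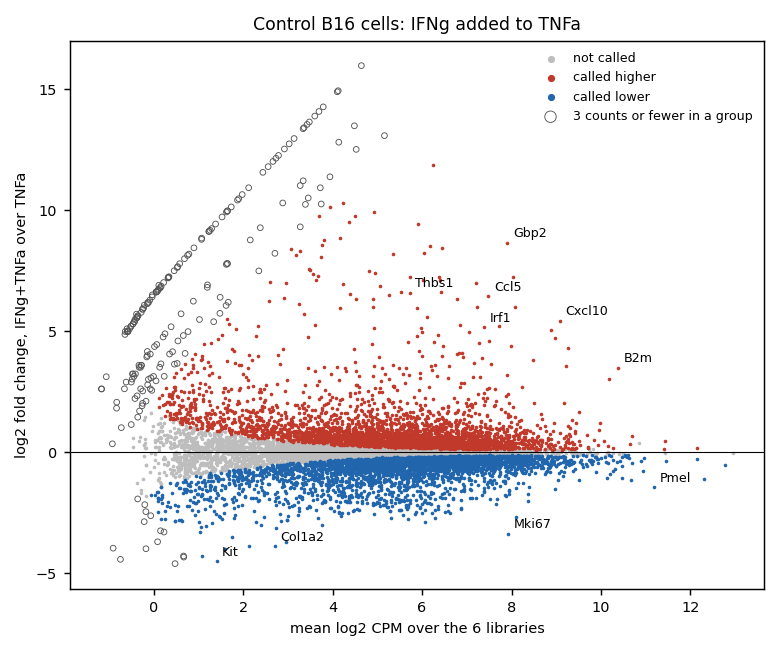
Log2 fold change of IFNg+TNFa over TNFa (vertical axis) against the mean log2 CPM over the 6 libraries (horizontal axis) for the 11726 genes tested, called genes in colour. Fitted values of genes with 3 counts or fewer in a group are drawn as hollow grey marks because their size depends on the prior count. The largest fitted decrease outside those marks was -4.51 (Kit).

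The 15 largest increases by the naming rule include interferon-inducible GTPase genes, a nucleic acid sensor, a chemokine and apolipoprotein L genes. Gbp4, a guanylate-binding protein gene, had no count in the 3 TNFa libraries and 1616, 1592 and 1545 CPM in the IFNg+TNFa libraries, at least 7357-fold higher, where such bounds set the group at 0 to a total of 3 counts. Zbp1, a sensor of left-handed nucleic acid, reached 764, 759 and 795 CPM from no count and was at least 3592-fold higher. Neither gene had a count in any TNFa library, and each was abundant in every IFNg+TNFa library. Oas3 (an enzyme of the 2-5A antiviral pathway, at least 1367-fold), Apol6 (at least 1983-fold) and Apol10b (at least 1213-fold), both apolipoprotein L genes, had no count under TNFa either. The same holds for AI607873 (at least 783-fold) and the predicted genes Gm12185 and Gm4841, and the GTPase genes and Cxcl9 that complete the 15 are described below. Among the 15 largest decreases, Kit, the stem cell factor receptor gene of melanocytes, fell from 11.4, 8.28 and 8.296 CPM to 0.209, 0.728 and 0.181 CPM (-4.51 ± 0.40). Col1a2, a chain of type I collagen, fell from 18.4, 25.9 and 22.8 CPM to 1.25, 1.64 and 1.63 CPM (-3.88 ± 0.23). In both genes every IFNg+TNFa library was below every TNFa library. Npnt (-4.28 ± 0.46, adhesion ligand nephronectin), Fam81a (-3.98 ± 0.37), Megf6 (-3.72 ± 0.20), Gpr37 (-3.48 ± 0.31, a G protein-coupled receptor), Kbtbd11 (-3.305 ± 0.46), Trnp1 (-3.11 ± 0.21), Adcy2 (-3.03 ± 0.43, an adenylyl cyclase) and Sema6d (-2.91 ± 0.40, a semaphorin) also fell, as did 6330403A02Rik and Mki67, Depdc1a and Hmgb2, genes of dividing cells described below. For Kit and Npnt, 1 library moved the fold change by more than 1.5 times: without IFNg+TNFa replicate 2 the differences were -5.39 and -5.76.

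Chemokine genes of the interferon response rose. Cxcl9, Cxcl10 and Cxcl11 encode the ligands of CXCR3, the receptor that draws activated T cells, and Ccl5 encodes a chemokine of T cells and monocytes. Cxcl10 held 93.6, 82.8 and 70.5 CPM in the TNFa libraries and 3491, 3585 and 3589 CPM in the IFNg+TNFa libraries (5.44 ± 0.06, adjusted p = 1.7e-53). Ccl5 held 17.9, 20.2 and 18.7 CPM and 1589, 1661 and 1724 CPM (6.44 ± 0.08, adjusted p = 4.2e-53). Cxcl9 had 1 count in the 3 TNFa libraries together and 1150, 1100 and 1074 CPM with IFNg (ratio 15423, 2768 to 609203), where the range after a ratio is a 95% exact binomial interval for counting error only. All IFNg+TNFa libraries were far above all TNFa libraries for the 3 genes. Cxcl11 rose from 0.271, 0.184 and 0.415 CPM to 334, 375.01 and 340.1 CPM (10.13 ± 0.17). Ccl2, a monocyte chemokine, went from no count to 1.25, 2.002 and 1.99 CPM, at least 8.23-fold higher. Of 16 chemokine genes on the list 8 were tested, 5 were called higher and none lower, with a median of 5.82 (4.24 with genes at 0 set to their bound) against 0.007 over all genes. The filter ran over all B16 groups, and a gene that passed it only through the control IFNg+TNFa group had to differ. The 3 tested members without a call were Cxcl1 (-0.78 ± 0.52), Cx3cl1 (0.50 ± 0.68) and Ccl25 (0.00 ± 0.19), and of the 8 that were not tested Cxcl2, Ccl20, Ccl7, Cxcl5 and Cxcl12 had no count in the 6 libraries.

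Promoter sequences were planned for Cxcl9, Cxcl10, Ccl5 and Irf1, whose promoters are of the kind that STAT factors, IRF1 and NF-kB act on. The promoter annotation used here held no entry for Ccl5. The 250 bases before the start sites of Cxcl9, Cxcl10 and Irf1 are shown. They are from RefSeq on GRCm38.p6, 5′ to 3′ on the gene's strand. Cxcl10 lies at chr5:92348890-92349139 (minus strand), Cxcl9 at chr5:92328080-92328329 (minus strand), and Irf1 at chr11:53769764-53770013 (plus strand). Capitals mark matches to the ISRE motif GAAANNGAA, the GAS motif TTCNNNGAA or the kB motif GGANNTTCC, searched on both strands.
Cxcl10: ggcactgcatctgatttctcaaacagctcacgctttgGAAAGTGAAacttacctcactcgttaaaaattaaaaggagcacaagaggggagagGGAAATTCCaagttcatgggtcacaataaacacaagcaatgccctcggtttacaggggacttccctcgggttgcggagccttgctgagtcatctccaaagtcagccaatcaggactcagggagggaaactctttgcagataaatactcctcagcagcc
Cxcl9: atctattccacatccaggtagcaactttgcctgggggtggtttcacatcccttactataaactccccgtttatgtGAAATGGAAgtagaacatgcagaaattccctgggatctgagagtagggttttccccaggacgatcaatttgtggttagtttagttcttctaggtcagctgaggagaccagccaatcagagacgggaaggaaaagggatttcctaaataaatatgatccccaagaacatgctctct
Irf1: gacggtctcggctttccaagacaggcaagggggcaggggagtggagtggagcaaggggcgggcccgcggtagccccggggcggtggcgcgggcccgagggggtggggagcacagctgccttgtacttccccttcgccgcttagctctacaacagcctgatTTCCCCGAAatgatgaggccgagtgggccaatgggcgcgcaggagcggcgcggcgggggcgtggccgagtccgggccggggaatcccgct
The Cxcl10 window held an ISRE match (GAAAGTGAA) beginning 213 bases before the start and a kB match (GGAAATTCC) beginning 158 bases before it. In the Cxcl9 window there was an ISRE match (GAAATGGAA) beginning 175 bases before the start. The Irf1 window held a GAS match (TTCCCCGAA) beginning 90 bases before the start, and the window of a second annotated Irf1 start held none of the motifs. Over 32851 promoters of the table, 7.02% held the GAS motif, 7.13% the ISRE motif and 3.59% the kB motif. Over the 10830 promoters of tested genes the shares were 6.01%, 6.02% and 3.82%. Among 1017 promoters of genes called at least 2-fold higher they were 9.54%, 12.8% and 5.60%, and among 733 promoters of genes called at least 2-fold lower they were 4.77%, 5.32% and 2.86%. These shares are descriptions of letters in the windows and were not tested.

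**Figure D2:**
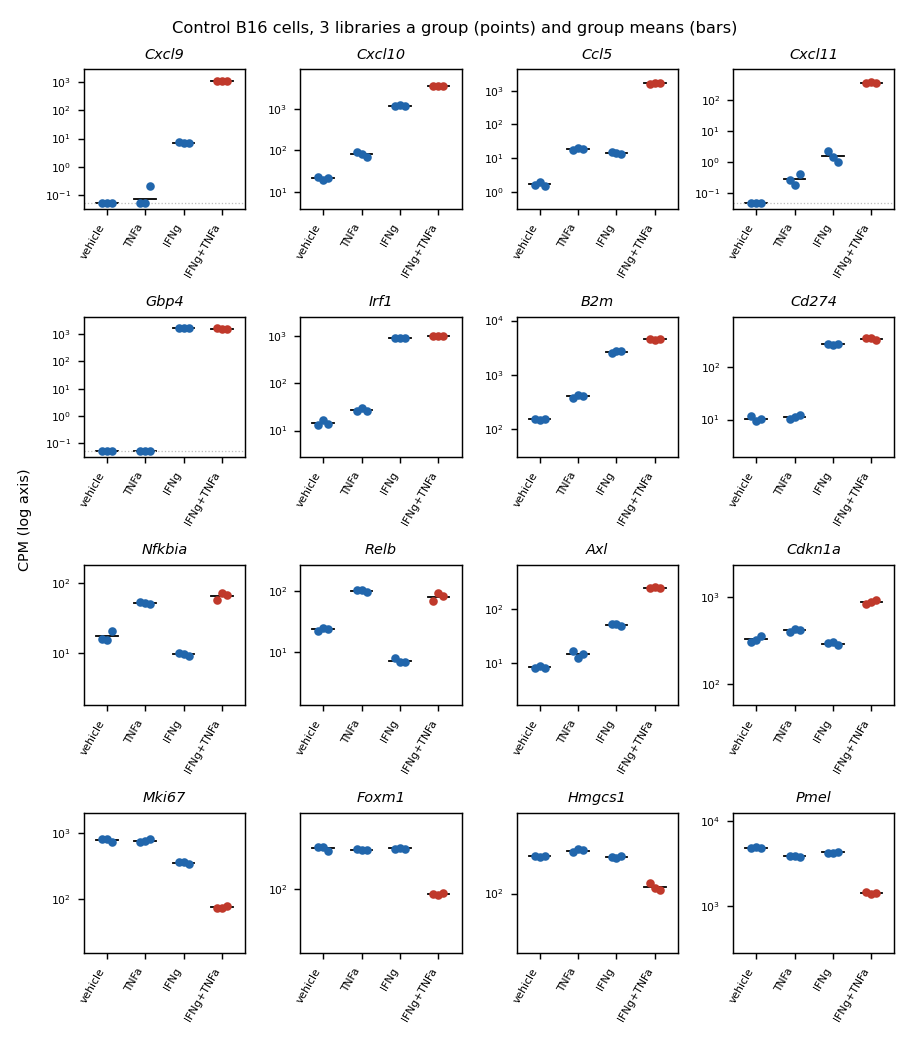
CPM (log axis, with libraries at 0 drawn at the bottom line) of 16 genes in each library of control B16 cells given vehicle, TNFa, IFNg or both, 3 libraries a group. Points are libraries and bars are group means; Cxcl9 and Ccl5 stand far higher with both cytokines than with either, Gbp4 and Irf1 are at similar levels with and without TNFa when IFNg is present, and Mki67, Hmgcs1 and Pmel are lowest with both.

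Genes of antigen presentation by MHC class I rose. The class I chains H2-K1 and H2-D1 pair with B2m, and NLRC5 is the transcriptional activator of this group. B2m held 368, 418 and 399 CPM under TNFa and 4586, 4393 and 4476 CPM with IFNg (3.503 ± 0.05). H2-K1 held 36.6, 28.3 and 37.7 CPM and 2055, 2154 and 2260 CPM (5.99 ± 0.08), and Nlrc5 had 1 count under TNFa and 224, 235 and 228 CPM with IFNg (ratio 3201, 574 to 126485). No library of one group reached the other in any of these genes. H2-D1 (4.31 ± 0.06), H2-Q4 (4.06 ± 0.09) and H2-T23 (8.78 ± 0.19) rose too, and 8 of 8 tested members of 11 were higher, with a median of 5.74. Among genes that cut, carry and load peptides, Tap1 and Tap2, the subunit genes of the peptide transporter, rose by 6.35 ± 0.07 and 6.63 ± 0.09. The immunoproteasome subunit genes Psmb9 (8.87 ± 0.16) and Psmb10 (4.12 ± 0.11), the loading factors Tapbp (3.57 ± 0.05) and Tapbpl (4.56 ± 0.09) and the trimming peptidase gene Erap1 (3.63 ± 0.15) rose, and Psmb8 went from 1 count to 189, 189.6 and 221 CPM (ratio 2794, 501 to 110400). The proteasome activator genes Psme1 (3.12 ± 0.09) and Psme2 (2.95 ± 0.22) rose while Psme3, whose product belongs to a different activator, was at -0.01 ± 0.05. Of 14 tested genes of this list of 15, 11 were higher and 1 lower: Calr, a chaperone with other roles in the endoplasmic reticulum, at -0.11 ± 0.04, a call that ended without IFNg+TNFa replicate 1 (-0.09), without replicate 3 (-0.07) and with no filter (-0.09). Of the constitutive proteasome subunits that the immunoproteasome replaces, Psmb5 at 0.05 ± 0.15 and Psmb7 at -0.05 ± 0.08 were not called, and Psmb6 was at 0.20 ± 0.08 with a call that ended in 3 of the fits that left out a library.

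MHC class II genes, usually restricted to professional antigen presenting cells and switched on by CIITA, rose in 7 of 8 tested. Cd74, the invariant chain, rose from 2.71, 0.919 and 2.696 CPM to 180.0, 182 and 203 CPM (6.53 ± 0.20), with no overlap. Ciita itself had no count under TNFa and 5.42, 3.46 and 4.52 CPM with IFNg, at least 20.6-fold higher. H2-Aa, a class II chain, was at least 12.6-fold higher at 2.92, 2.37 and 2.89 CPM. No library of one group reached the other, and each level of Ciita and H2-Aa rested on few reads. H2-DMa, a class II loading chain, rose by 3.11 ± 0.41 and Ctss, a protease of the class II pathway, was at least 33.2-fold higher. Ifi30, a lysosomal reductase of the same pathway, fell by 0.64 ± 0.09. Of 10 listed genes 8 were tested, 7 higher and 1 lower, with a median of 6.22 (3.38 with genes at 0 set to their bound). Under IFNg alone Ciita held 15.4, 17.2 and 16.5 CPM, above its levels with both cytokines. Cd74 held 18.6, 13.9 and 13.0 CPM under IFNg alone, below its levels with both. These levels with and without TNFa were not tested against each other.

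The interferon-inducible GTPases, which attack vacuoles of intracellular pathogens, rose as families. Of 11 guanylate-binding protein genes 10 were tested and called higher, and 10 of 10 immunity-related GTPase genes were called higher. Gbp2 rose from 10.9, 12.9 and 11.4 CPM to 4824, 4789 and 4688 CPM (8.65 ± 0.08). Irgm1 rose from 22.8, 22.1 and 18.04 CPM to 3250, 3182 and 3108 CPM (7.25 ± 0.07), and Igtp from 0.814, 0.736 and 1.66 CPM to 3994, 4085 and 4159 CPM (11.86 ± 0.11). In these 3 genes every IFNg+TNFa library was far above every TNFa library. Iigp1 had 3 counts under TNFa and 2197, 2108 and 1937 CPM with IFNg (ratio 9647, 3301 to 46783). Tgtp1 was at least 3481-fold higher and its near-identical neighbour Tgtp2 had a ratio of 9637, 1729 to 380674. Gbp10 was at least 1464-fold, Gbp6 at least 913-fold and Gm4951 at least 1244-fold higher. Reads shared by near-identical copies in the Gbp, Tgtp and H2 families, or by overlapping genes, may have been split or dropped in the counting, so the share of each copy is uncertain. The list medians were 10.93 and 12.19 (9.62 and 11.02 with genes at 0 set to their bound).

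Antiviral interferon-stimulated genes rose in 30 of 30 listed, all of which were tested, with a median of 6.94. Ifit1, whose product binds foreign RNA caps, rose from 8.96, 7.91 and 3.53 CPM to 1065, 1016 and 1001 CPM (7.26 ± 0.11). Isg15, a ubiquitin-like modifier, rose from 8.68, 5.701 and 7.05 CPM to 883, 956 and 1038 CPM (7.100 ± 0.17), and Oasl2, of the oligoadenylate synthetase family, from 1.09, 0.552 and 0.8296 CPM to 768, 773 and 805 CPM (9.91 ± 0.14). For Ifit1, Isg15 and Oasl2 every IFNg+TNFa library was above every TNFa library. Ifit3 (8.42 ± 0.11), Mx1 (7.398 ± 0.13), Rsad2 (5.99 ± 0.08), Parp14 (7.01 ± 0.10) and the RNA sensor genes Ifih1 (4.804 ± 0.15) and Ddx58 (3.88 ± 0.07) lay within the list. Eif2ak2 (the kinase PKR, 2.25 ± 0.06), Adar (an RNA editor, 2.41 ± 0.06) and Samhd1 (a nucleotide hydrolase, 2.61 ± 0.05) changed least of the 30.

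Genes of the signalling pathway itself changed at several levels. Irf1 rose from 26.1, 30.5 and 26.3 CPM to 1004, 1014 and 1008 CPM (5.18 ± 0.06). Irf8, a factor known mainly from blood cells, had no count under TNFa and 36.3, 33.8 and 31.1 CPM with IFNg, at least 156-fold higher. Neither gene overlapped between groups. Stat2 (4.83 ± 0.08), Stat3 (2.66 ± 0.06), Irf7 (8.21 ± 0.10), Irf5 (3.72 ± 0.13) and Irf9 (3.25 ± 0.10) rose, and Irf3, which is known as constitutively expressed, fell by 0.34 ± 0.09. The list of 17 STAT and IRF genes had 14 tested, 11 higher and 2 lower (Irf3 and Stat5a). Of the receptor and kinase genes, Ifngr1 held 27.1, 23.5 and 23.9 CPM and 24.2, 24.4 and 21.3 CPM with overlapping groups (-0.08 ± 0.12, adjusted p = 0.56). Ifngr2 (-0.25 ± 0.06) and the type I interferon receptor gene Ifnar1 (-0.38 ± 0.06) fell, and Ifnar2 (1.22 ± 0.07), Jak1 (0.87 ± 0.06) and Jak2 (0.94 ± 0.11) rose, so that of 8 genes 5 were higher and 2 lower. Among inhibitors of the pathway, Socs1 rose from 1.63, 1.103 and 1.04 CPM to 58.2, 61.1 and 73.8 CPM (5.697 ± 0.21) and Socs3 from 8.68, 7.17 and 10.2 CPM to 56.96, 58.2 and 61.8 CPM (2.77 ± 0.14). Socs2 (-2.22 ± 0.61) was lower; without IFNg+TNFa replicate 2 its difference was -3.10. Ptpn2, the phosphatase gene that the study deleted in the other genotype, held 55.6, 55.7 and 52.3 CPM and 60.3, 60.6 and 60.6 CPM; the groups did not overlap, but the difference of 0.15 ± 0.09 was not called (adjusted p = 0.13). Of 9 feedback genes 2 were higher and 3 lower, a share of called genes close to the background of 60.3%.

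Genes of NF-kB, the factor that TNFa activates, moved in both directions. Bcl3, a nuclear partner of NF-kB, rose from 3.26, 3.68 and 4.36 CPM to 20.9, 28.2 and 28.6 CPM (2.77 ± 0.20). The inhibitor genes Nfkbie and Nfkbia rose, Nfkbie from 79.5, 77.1 and 69.7 CPM to 137, 147 and 136 CPM (0.89 ± 0.07) and Nfkbia from 53.5, 51.1 and 49.6 CPM to 58.00, 71.3 and 66.9 CPM (0.35 ± 0.10). The groups did not overlap in these 3 genes. Birc2 (1.29 ± 0.12) and Birc3 (1.15 ± 0.14), ubiquitin ligases of TNF signalling, Cyld (1.03 ± 0.08), a deubiquitinase that limits it, and the receptor gene Tnfrsf1a (1.21 ± 0.06) rose. The subunit gene Nfkb1 (-0.40 ± 0.07) and the adaptor gene Traf2 (-0.44 ± 0.09) fell, as did Relb (-0.32 ± 0.09), whose call ended without IFNg+TNFa replicate 1 (-0.20). Tnfaip3, the feedback gene A20, held 2.71, 4.05 and 2.28 CPM and 4.59, 4.37 and 4.16 CPM and was not called (0.50 ± 0.28), except without TNFa replicate 2 (0.81). In all, 20 of 22 genes were tested, 13 higher and 4 lower, with a median of 0.43; Traf1 and Tnfrsf1b were not tested.

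Of the ligands that T cells read on tumour cells, Cd274 (PD-L1) rose from 10.04, 11.4 and 12.2 CPM to 365, 363 and 329 CPM (4.96 ± 0.09). The galectin gene Lgals9 rose from 24.97, 27.4 and 31.5 CPM to 325, 326 and 342 CPM (3.56 ± 0.07), and Cd47, the signal that restrains phagocytes, from 26.1, 26.7 and 27.2 CPM to 248.9, 236 and 238 CPM (3.17 ± 0.08). In these 3 genes the groups did not overlap. Pvr, a ligand of TIGIT and CD226, rose by 1.25 ± 0.07. Tnfrsf14, the ligand of BTLA, rose by 4.85 ± 0.50, which was 5.66 without TNFa replicate 1 and 4.18 without TNFa replicate 2, and Tnfsf9 held 8.41, 10.7 and 7.26 CPM and 7.09, 9.83 and 9.402 CPM (-0.01 ± 0.20). Of 14 listed genes 7 were tested, with 6 higher and none lower. The 7 not tested include Icam1 (3 counts over the TNFa group and 10 over the IFNg+TNFa group), Pdcd1lg2, Cd80 and Cd86.

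Cell death genes rose in part. Casp4, the caspase that senses lipopolysaccharide, rose from 8.68, 9.93 and 7.05 CPM to 103, 100.1 and 104 CPM (3.57 ± 0.11). Gsdmd, the pore protein that it cuts, rose from 8.14, 7.72 and 8.503 CPM to 117, 125 and 136 CPM (3.96 ± 0.13), and Mlkl, the pore protein of necroptosis, from 42.6, 40.8 and 46.2 CPM to 308, 306 and 316 CPM (2.84 ± 0.06). All were without overlap. Ninj1, whose product ruptures the membrane of dying cells, rose by 2.02 ± 0.08 and Il18 by 3.36 ± 0.20. The 8 tested of 14 pyroptosis and necroptosis genes were called higher, Dfna5 (gasdermin E) among them at 0.46 ± 0.20 with a call that ended under the replicate block (0.46), with DESeq2 (0.47) and in 5 of 6 fits that left out a library. Ripk3, Casp1, Aim2, Nlrp3, Il1b and Il1rn were not tested, and Ripk3 and Il1b had no count in either group. In the death receptor pathway genes changed in both directions. Tnfsf10 (TRAIL) went from no count to 22.9, 27.3 and 21.5 CPM, at least 111-fold higher, Fas from no count to 1.67, 0.546 and 1.08 CPM, at least 4.99-fold higher, and Casp8 rose from 89.8, 91.8 and 85.9 CPM to 141, 135 and 135 CPM (0.62 ± 0.06). Bid (1.88 ± 0.06), Cflar (the caspase-8 inhibitor, 1.495 ± 0.08), Ripk1 (0.96 ± 0.07), Bak1 (0.86 ± 0.06) and Bcl2l1 (an inhibitor of apoptosis, 0.90 ± 0.08) rose. Bax (-0.30 ± 0.09), Fadd (-0.28 ± 0.08) and Bcl2 (-0.26 ± 0.09) were lower, Bcl2 with a call that ended without IFNg+TNFa replicate 3 (-0.18). Of 22 tested genes of 23, 11 were higher and 5 lower.

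Genes of dividing cells fell together. Mki67, the proliferation antigen, held 736, 767 and 812 CPM under TNFa and 74.1, 74.1 and 78.1 CPM with IFNg (-3.35 ± 0.07, adjusted p = 1.2e-39). Mcm2, of the replication helicase, held 620.1, 593 and 589.6 CPM and 182, 184 and 183 CPM (-1.71 ± 0.04), and Ccnb1, cyclin B, 90.9, 92.1 and 85.2 CPM and 15.02, 17.6 and 16.4 CPM (-2.44 ± 0.11). In each gene every IFNg+TNFa library was below every TNFa library. Of 25 DNA replication genes 24 were called lower and none higher, 23 of them at least 2-fold, with a median of -1.71; Rfc3 held -0.17 ± 0.09 without a call. Of 25 mitosis and spindle genes 25 were at least 2-fold lower, with a median of -2.11. The background for calls at least 2-fold lower is 6.81%. Tk1 (-2.898 ± 0.10, thymidine kinase), Rrm2 (-1.92 ± 0.05, ribonucleotide reductase), Top2a (-2.01 ± 0.05), Birc5 (-2.46 ± 0.08, survivin) and Foxm1 (-1.75 ± 0.05, an activator of mitotic genes) are examples. Depdc1a (-3.02 ± 0.23) and Hmgb2 (-2.99 ± 0.16, a chromatin protein), named for the size of their change, are also known from dividing cells. Inhibitors of the cycle moved less uniformly. Cdkn1a (p21) rose from 396, 437 and 425 CPM to 849, 894 and 943 CPM (1.09 ± 0.05), Mdm2, a p53 target and inhibitor, from 144, 140.0 and 137 CPM to 417, 418 and 408 CPM (1.56 ± 0.06), and Gadd45a from 12.2, 13.8 and 13.9 CPM to 39.9, 47.7 and 48.6 CPM (1.76 ± 0.13). No groups overlapped in these. Cdkn1b held 105, 110.3 and 116 CPM and 114, 107 and 105 CPM with overlap (-0.03 ± 0.07), Cdkn2c fell by 0.98 ± 0.07, Ccnd1 rose by 0.59 ± 0.06 and Myc by 0.33 ± 0.08. Of 19 tested genes of 20 in this list, 10 were higher and 3 lower.

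**Figure D3:**
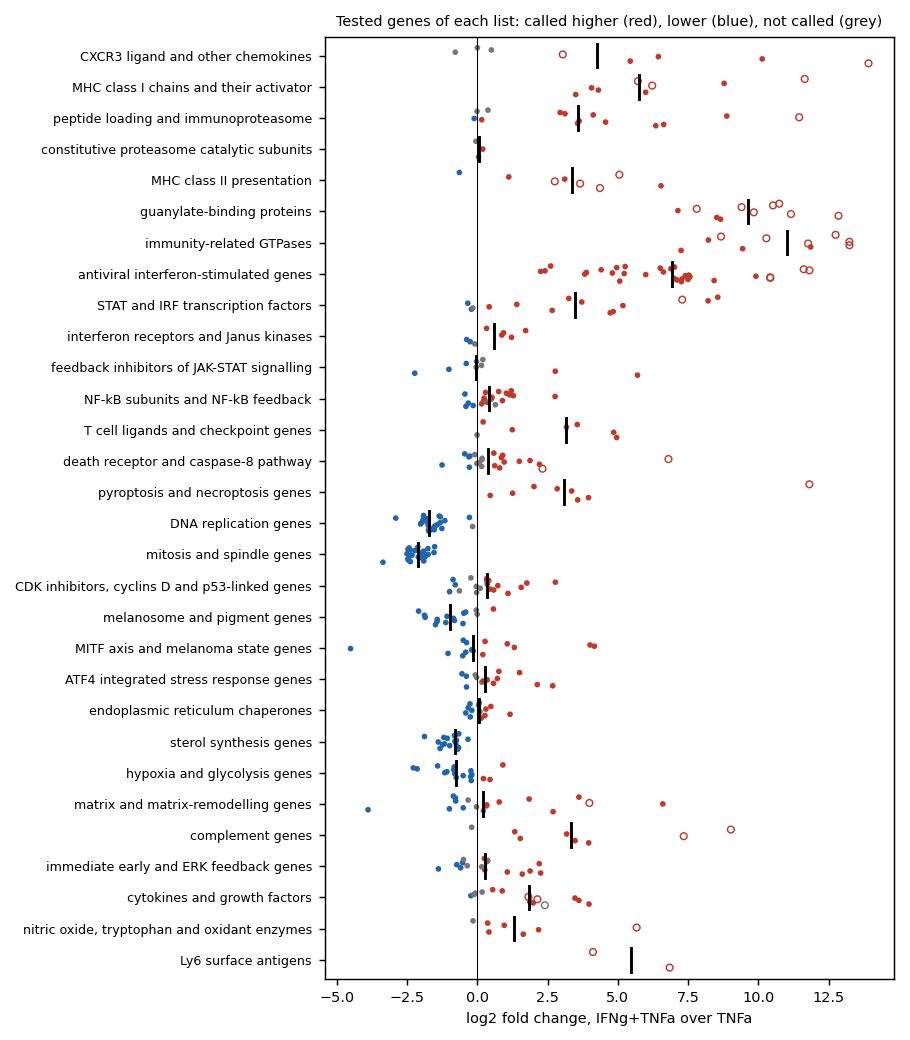
Log2 fold change of IFNg+TNFa over TNFa for each tested gene (points) of 30 gene lists in rows, with the list's median as a bar; hollow points are genes with 3 counts or fewer in a group, drawn at their lower bound or ratio. GTPase and antiviral lists lie far to the right of 0 and the replication, mitosis and sterol lists to the left.

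Sterol synthesis genes, which SREBP2 controls, fell in 17 of 18, none rose, and the median was -0.80. Hmgcs1 fell from 286, 305 and 299.5 CPM to 131, 116 and 109.9 CPM (-1.32 ± 0.06). Insig1, an SREBP2 target that holds the factor in the endoplasmic reticulum, fell from 289.6, 288 and 266 CPM to 82.2, 71.5 and 76.5 CPM (-1.88 ± 0.07), and Cyp51 from 325, 332 and 356 CPM to 158, 143 and 144 CPM (-1.19 ± 0.05). The libraries of the groups did not overlap. Srebf2 itself (-0.81 ± 0.06) and Sqle (-0.66 ± 0.06), the squalene epoxidase gene, fell. Idi1 (-0.76 ± 0.30) lost its call in 3 of 6 fits that left out a library. Of 17 tested hypoxia and glycolysis genes 14 were lower and 3 higher: Slc16a3, a lactate exporter, fell from 50.2, 69.5 and 74.2 CPM to 21.9, 9.28 and 14.1 CPM (-2.14 ± 0.23), as did Ldha (-0.80 ± 0.06) and Pdk1 (-1.15 ± 0.13), while Hk2 rose by 0.45 ± 0.07 and P4ha1 by 0.91 ± 0.08. Of the 14 lower calls those of Car9, Vegfa, Slc2a1 and Pkm2 each ended in at least 2 of the alternative fits.

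Pigment genes fell in 13 of 16 tested, with a median of -0.96. Pmel, the scaffold of the melanosome, held 3824, 3906 and 3731 CPM and 1459, 1368 and 1422 CPM (-1.43 ± 0.04). Dct held 7274, 7577 and 7482 CPM and 3412, 3346 and 3527 CPM (-1.12 ± 0.04), and Tyr, tyrosinase, 155, 166 and 169 CPM and 66.1, 58.04 and 52.1 CPM (-1.48 ± 0.09). The groups did not overlap. Trpm1 (-2.09 ± 0.08), Rab27a (-1.88 ± 0.06, melanosome transport), Oca2 (-1.85 ± 0.15) and Slc45a2 (-1.42 ± 0.06) fell by more than Tyrp1 (-0.51 ± 0.06) and Mlph (-0.41 ± 0.05), and Gpnmb (-0.03 ± 0.03) and Rab38 (-0.00 ± 0.04) were not called. The copper transporter gene Atp7a was higher (0.57 ± 0.14), at 57.5, 55.9 and 66.6 CPM under TNFa and 101, 89.7 and 78.3 CPM with both. Atp7a levels with both stayed below those under vehicle (130.5, 135 and 134 CPM) and under IFNg alone (133.9, 127 and 123 CPM). Mitf, the factor that controls this program, fell from 354, 366 and 379 CPM to 273, 245 and 252 CPM (-0.51 ± 0.06), whereas Sox10 rose from 781, 791 and 782 CPM to 847, 921 and 932 CPM (0.20 ± 0.05). Axl, a receptor kinase, rose from 16.8, 11.9 and 14.3 CPM to 245, 266 and 249.0 CPM (4.17 ± 0.09), and Ngfr, a neural crest receptor, rose from 1.900, 1.47 and 1.24 CPM to 21.5, 25.1 and 27.1 CPM (4.01 ± 0.22). All 4 genes were without overlap. Erbb3 (1.32 ± 0.14) and Jun (1.07 ± 0.07) also rose, Sox9 fell by 1.04 ± 0.17, and Egfr and Sox2 had no count. Of 14 tested genes of the MITF and state list 6 were higher and 7 lower, with a median of -0.17.

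Stress genes were split. Ddit3 (CHOP) rose from 77.1, 85.7 and 79.6 CPM to 317, 354 and 398 CPM (2.14 ± 0.14), and Atf3 from 26.1, 29.98 and 27.4 CPM to 172, 173 and 194 CPM (2.68 ± 0.10). Atf4, whose product activates both and is controlled at translation, fell from 715, 769 and 772 CPM to 541, 586 and 604 CPM (-0.38 ± 0.07). None of the 3 overlapped between groups. Nupr1 (1.503 ± 0.12), Cebpb (0.77 ± 0.13), Ppp1r15a (0.72 ± 0.10) and Trib3 (0.58 ± 0.11) rose and Phgdh (-0.54 ± 0.11) fell, and Chac1 (0.16 ± 0.13) and Psat1 (-0.07 ± 0.05) were not called. Of 14 tested genes of this list 8 were higher and 3 lower. Of 13 endoplasmic reticulum chaperone genes 5 were higher and 5 lower: Dnajb9 rose by 1.17 ± 0.12 and Hspa5 (BiP) by 0.14 ± 0.04, and Dnajc3 (-0.41 ± 0.06) and Hsp90b1 (-0.25 ± 0.04) fell.

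Genes of secreted proteins changed widely. Of 11 complement genes 8 were tested and 7 rose, with a median of 3.33. C1s, a protease of the classical pathway, rose from 14.9, 14.9 and 14.1 CPM to 154, 171 and 164 CPM (3.48 ± 0.10). C2 rose from 75.99, 81.5 and 80.3 CPM to 711, 731 and 717 CPM (3.18 ± 0.06), and C3, the central component, from 1 count to 10.2, 14.2 and 10.3 CPM (ratio 162, 28.7 to 6440). C4b had no count under TNFa in any library and was at least 519-fold higher. In the matrix list Thbs1 (thrombospondin 1) rose from 6.24, 5.52 and 3.94 CPM to 542, 529 and 438 CPM (6.597 ± 0.19) and Fn1 (fibronectin) from 118, 109.8 and 129 CPM to 778, 799.9 and 731 CPM (2.696 ± 0.10). Both were without overlap. Tgm2 (3.61 ± 0.26) and Mmp2 (1.84 ± 0.17) rose as well, and of 17 tested matrix genes 8 were higher and 6 lower. Besides Col1a2, Col4a1 (-0.99 ± 0.12), Timp2 (-0.77 ± 0.05) and Adamts1 (-0.85 ± 0.07) fell. Of 14 tested cytokine and growth factor genes 9 were higher and 1 lower. Csf1, the macrophage growth factor, rose from 73.3, 75.95 and 56.6 CPM to 258, 272 and 285 CPM (1.99 ± 0.08), Lif from 0.814, 0.368 and 0 CPM to 5.63, 4.55 and 7.78 CPM (3.97 ± 0.48) and Il15 from 2.71, 2.21 and 2.903 CPM to 7.93, 10.7 and 9.58 CPM (1.86 ± 0.24). Lif stayed at low counts, and without TNFa replicate 1 its difference was 4.78. Il6 had 1 count under TNFa and a ratio of 5.29, 0.642 to 243, an interval that includes no change. Immediate early genes were 8 higher and 4 lower of 16 tested, with Fosl2 (2.25 ± 0.09), Dusp6 (2.203 ± 0.10, a phosphatase that limits ERK) and Junb (1.88 ± 0.10) higher and Dusp4 (-0.73 ± 0.08) and Ier2 (-0.59 ± 0.11) lower. Among enzymes of nitric oxide, tryptophan and oxidant handling 6 of 8 tested rose, including Irg1, the itaconate synthase, from no count to 9.805, 12.9 and 9.95 CPM (at least 50.8-fold), Sod3 (2.18 ± 0.16) and the tryptophanyl-tRNA synthetase gene Wars (0.96 ± 0.05). Nos2 had no count under TNFa and 3 counts over the IFNg+TNFa libraries, which is at the floor and gives no fold, and Ido1 was not tested. The Ly6 genes Ly6a and Ly6c1, 2 tested of 8, went from no count to at least 115-fold and 17.3-fold higher.

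The effect of IFNg was next compared between cells with and without TNFa, by testing the difference between the log2 effect of IFNg on top of TNFa and its effect against vehicle. These 4 groups share no library. The 2 effects differed in 3002 genes: 1234 were more positive with TNFa (10.5% of tested genes) and 1768 more negative (15.1%). Below, list members are counted for such a difference only where each group without IFNg held at least 10 counts over its 3 libraries, because a gene with fewer can hardly show one; of the 11291 genes that met this limit 10.8% were more positive and 15.6% more negative. The plot of both effects shows where the genes named below lie.

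**Figure D4:**
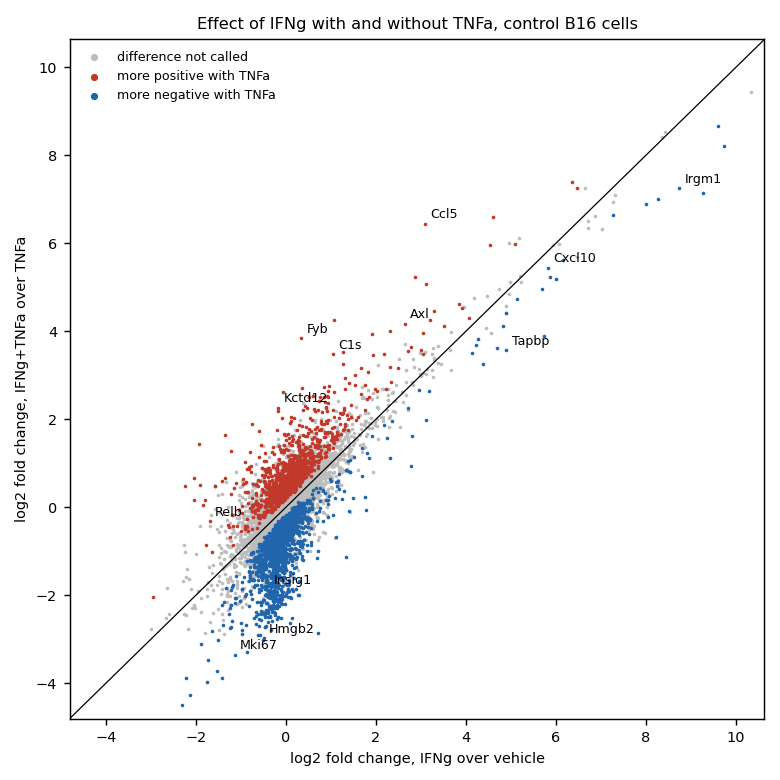
Log2 effect of IFNg in cells given TNFa (vertical axis) against its effect in cells given no TNFa (horizontal axis) for tested control-cell genes with at least 10 counts in each of the vehicle and TNFa groups and more than 3 in the IFNg+TNFa group. The diagonal is equal effect; genes whose effects differed by the test are coloured by direction, and Ccl5 and Fyb lie above the diagonal while Mki67 and Hmgb2 lie below it.

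Among the chemokine genes Ccl5 had a larger effect of IFNg with TNFa. It held 1.58, 1.95 and 1.48 CPM under vehicle and 15.6, 13.9 and 13.2 CPM under IFNg alone, an effect of 3.09 ± 0.20, and the effect with TNFa exceeded it by 3.35 ± 0.34 (adjusted p = 1.1e-11). Cxcl10 held 22.5, 18.9 and 21.9 CPM under vehicle and 1196, 1219 and 1187 CPM under IFNg alone, and its fold change was smaller with TNFa (difference -0.39 ± 0.10). Even so, every IFNg+TNFa library was above every IFNg library for Cxcl10, and every TNFa library was above every vehicle library. The differences of the 2 genes had opposite signs. Cxcl9 held 7.46, 6.801 and 6.805 CPM under IFNg alone and 1150, 1100 and 1074 CPM with both, and Cxcl11 2.32, 1.46 and 1.03 CPM and 334, 375.01 and 340.1 CPM, but neither had a count under vehicle, so no difference of effects is given. The other genes named for a more positive effect with TNFa were Fyb (3.49 ± 0.63), an adaptor gene known from blood cells, Cdsn (3.197 ± 0.55), Casq2 (2.69 ± 0.50), Kctd12 (2.44 ± 0.16), C1s (2.43 ± 0.21), Tnfaip3 (2.42 ± 0.56) and Plscr2 (2.37 ± 0.44). For Tnfaip3 the effect of IFNg was -1.92 ± 0.49 without TNFa, a called fall, and 0.50 ± 0.28 with TNFa, which was not called. Kctd12 held 62.2, 63.5 and 55.6 CPM under vehicle and 56.03, 47.5 and 56.7 CPM under IFNg, against 46.95, 42.1 and 55.2 CPM and 252, 241 and 199 CPM with TNFa, so that only the IFNg+TNFa libraries stood above the other groups. Of the 6 complement genes with enough counts 4 had a more positive effect and none a more negative one. Ninj1 differed by 1.83 ± 0.12, Axl by 1.53 ± 0.18, Thbs1 by 1.99 ± 0.40, Fn1 by 1.38 ± 0.14 and Ifit2, of the antiviral list, by 1.97 ± 0.15.

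Several NF-kB genes fell with IFNg alone but rose, or fell less, with TNFa. Nfkbia held 15.99, 15.6 and 21.04 CPM under vehicle and 10.1, 9.88 and 9.07 CPM under IFNg alone (-0.86 ± 0.16), while with TNFa it rose, a difference of 1.22 ± 0.19 (adjusted p = 7.8e-07). Nfkbie differed by 1.27 ± 0.14, with an effect of -0.37 ± 0.12 without TNFa and 0.89 ± 0.07 with it. Relb fell by 1.70 ± 0.16 under IFNg alone and by 0.32 ± 0.09 with TNFa, a difference of 1.38 ± 0.19. In all 3 genes every TNFa library was above every vehicle library. Of the 19 NF-kB genes with enough counts 7 had a more positive effect with TNFa and none a more negative one.

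For part of the interferon-inducible genes the fold change was smaller with TNFa. B2m had 152, 147 and 152 CPM under vehicle and 2539, 2698 and 2685 CPM under IFNg, and its effect was smaller with TNFa (difference -0.63 ± 0.07) although every IFNg+TNFa library was above every IFNg library. Tapbp (-1.33 ± 0.08), Irf1 (-0.83 ± 0.10), Ddx58 (-1.85 ± 0.13), Gbp7 (-2.14 ± 0.28), Irgm1 (-1.49 ± 0.13) and Csf1 (-1.13 ± 0.13) also had smaller effects. H2-K1 (-0.08 ± 0.15, adjusted p = 0.74), Cd274 (0.22 ± 0.17, adjusted p = 0.37) and Stat2 (-0.13 ± 0.15, adjusted p = 0.6) were without a call. Of the 30 antiviral genes 20 had enough counts, and of these 4 had a more positive and 7 a more negative effect. Only 3 of 10 guanylate-binding protein genes and 3 of 10 immunity-related GTPase genes had enough counts, so nothing is read from these lists.

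Genes of dividing cells fell further with IFNg where TNFa was present. Mki67 held 810.4, 814 and 740.4 CPM under vehicle and 366, 362 and 342 CPM under IFNg alone (-1.142 ± 0.06), and the effect with TNFa differed from that by -2.21 ± 0.09 (adjusted p = 3.4e-25). For Top2a the effect without TNFa was -0.08 ± 0.05 and the difference -1.92 ± 0.07, and for Foxm1 -0.01 ± 0.05 and -1.74 ± 0.07. Foxm1 held 321, 314 and 288 CPM under vehicle, 304, 312 and 299 CPM under IFNg and 297, 294 and 292 CPM under TNFa, and 87.2, 84.6 and 89.9 CPM with both. The groups of vehicle, IFNg alone and TNFa alone overlapped or lay close, and the libraries with both lay below them. A more negative effect with TNFa was called in 25 of 25 mitosis genes and 24 of 25 replication genes, with a median difference of -1.94 and -1.39 against -0.009 over all genes. Cdkn1a differed with the opposite sign, by 1.25 ± 0.08, with 307, 319 and 354 CPM under vehicle and 295, 301 and 281 CPM under IFNg, as did Mdm2 (1.495 ± 0.08) and Gadd45a (1.51 ± 0.21). Of the 19 genes of the inhibitor and p53 list 11 had a more positive effect and 2 a more negative one. Depdc1a (-2.503 ± 0.28), Hmgb2 (-2.49 ± 0.21), Ska1 (-2.45 ± 0.26, a kinetochore gene), Col1a2 (-2.46 ± 0.31), Kbtbd11 (-2.44 ± 0.54), Anubl1 (-2.65 ± 0.49) and Gm4961 (-2.71 ± 0.45) completed the largest negative differences by the naming rule, along with Fbxo48, which had 3 counts under IFNg+TNFa and is given no fitted value.

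Sterol genes also had more negative effects with TNFa. Hmgcs1 held 256, 254 and 256 CPM under vehicle, 249.2, 245 and 256 CPM under IFNg and 286, 305 and 299.5 CPM under TNFa, and only the IFNg+TNFa libraries, at 131, 116 and 109.9 CPM, stood below the other groups. Its effects differed by -1.29 ± 0.08 and those of Cyp51 by -1.42 ± 0.07. A more negative effect with TNFa was called in 16 of 18 sterol genes and 14 of 16 pigment genes (median differences -0.93 and -0.67). Pmel differed by -1.25 ± 0.05 and Trpm1 by -1.82 ± 0.10, but Mitf, which was lower under TNFa (354, 366 and 379 CPM) than under vehicle (708, 692 and 709.5 CPM), had a difference that was not called (0.10 ± 0.08, adjusted p = 0.39). For endoplasmic reticulum chaperones 9 of 13 genes had a more positive and 2 a more negative effect, Dnajb9 with the largest (1.12 ± 0.18).

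The same addition was also tested in cells labelled Ptpn2-null, which held 10.03 to 16.1 CPM of Ptpn2 under TNFa and 13.4 to 16.4 CPM under IFNg+TNFa, against 52.3 to 55.7 and 60.3 to 60.6 CPM in control cells. The effect of IFNg on top of TNFa differed between genotypes in 3059 genes, more positive in Ptpn2-null cells in 1366 (11.6%) and more negative in 1693 (14.4%). Of the 11302 genes with at least 10 counts in the TNFa group of each genotype 11.8% were more positive and 14.9% more negative, and list members are counted within this limit. Of the 12 libraries, Ptpn2-null TNFa replicate 1 and Ptpn2-null IFNg+TNFa replicate 1 stood apart from their groups, with a residual SD above 1.5 times the median of all libraries. Without these and 3 further libraries of other treatments that stood apart, 3020 genes were called, 2466 of them shared. Across genes, the differences between genotypes had a rank correlation (Spearman) of -0.167 with transcript length. For IFNg added to TNFa in control cells it was 0.024, and for the differences with and without TNFa -0.021. What lay behind this correlation was not tested. With 1 guide per genotype, the deletion and other differences between the 2 cell populations cannot be told apart.

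Several genes that fell in control cells fell further in Ptpn2-null cells. Tspan10, a tetraspanin gene, held 686, 718 and 692 CPM and 107, 104 and 116 CPM in control cells, and 730.4, 798 and 806 CPM and 10.8, 10.2 and 8.83 CPM in Ptpn2-null cells, a difference of effects of -3.61 ± 0.11 (-3.71 without the libraries that stood apart). Kank4 held 37.99, 38.99 and 44.8 CPM and 13.98, 7.82 and 12.1 CPM, and 59.3, 44.1 and 43.9 CPM and 0.538, 0.401 and 0.368 CPM (-4.88 ± 0.42, -4.89 without those libraries). Both genes were lowest in the Ptpn2-null IFNg+TNFa libraries. Megf6, Hsd11b1 and Dhrs2 were also among the largest negative differences, but the Ptpn2-null IFNg+TNFa libraries held at most 3 counts of each, so no fitted value is given. Mitf, the pigment cell factor, held between 52.0 and 63.3 CPM in Ptpn2-null cells given both, a difference of -2.35 ± 0.09 (-2.27 without those libraries), and Mki67 held 25.3, 28.6 and 35.1 CPM (-1.38 ± 0.11, -1.28 without them). A more negative effect in Ptpn2-null cells was called for 22 of 25 mitosis genes, 20 of 25 replication genes, 14 of 18 sterol genes and 13 of 16 pigment genes. More positive effects were called for 2 mitosis genes, 1 replication gene, no sterol gene and 1 pigment gene.

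Among genes with a more positive effect, Adam8, a metalloproteinase gene, held 1.09, 1.103 and 0.622 CPM and 2.504, 2.55 and 2.53 CPM in control cells, and 0.8695, 1.139 and 1.08 CPM and 90.5, 88.1 and 85.4 CPM in Ptpn2-null cells (4.96 ± 0.62, 4.84 without the libraries that stood apart). Emp1, a membrane protein gene, fell in control cells (-1.07 ± 0.26) and held 5.65, 5.697 and 8.94 CPM and 40.5, 42.1 and 53.5 CPM in Ptpn2-null cells (3.85 ± 0.32, 3.83 without them). Il4ra, the interleukin 4 receptor, differed by 3.79 ± 0.47 (4.20 without them), and Cish, a STAT5-induced feedback gene, by 3.31 ± 0.49 (3.30 without them). Adam12, with 3 counts in the control IFNg+TNFa libraries, is given no fitted value. The groups of the 2 genotypes under IFNg+TNFa did not overlap in Adam8, Emp1, Il4ra and Cish. Ccl5 held 4857, 4102 and 4109 CPM in Ptpn2-null cells given both (1.94 ± 0.14, 1.77 without them), Fn1 2964, 3258 and 3846 CPM (2.58 ± 0.14, 2.71) and Socs3 249.3, 206 and 228 CPM (1.96 ± 0.22, 2.08). Each of these 3 genes was higher there than in control cells given both. A more positive effect was called for 14 of 23 antiviral genes with enough counts, 15 of 20 NF-kB genes and 12 of 13 endoplasmic reticulum chaperone genes, and a more negative one for none of these.

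**Figure D5:**
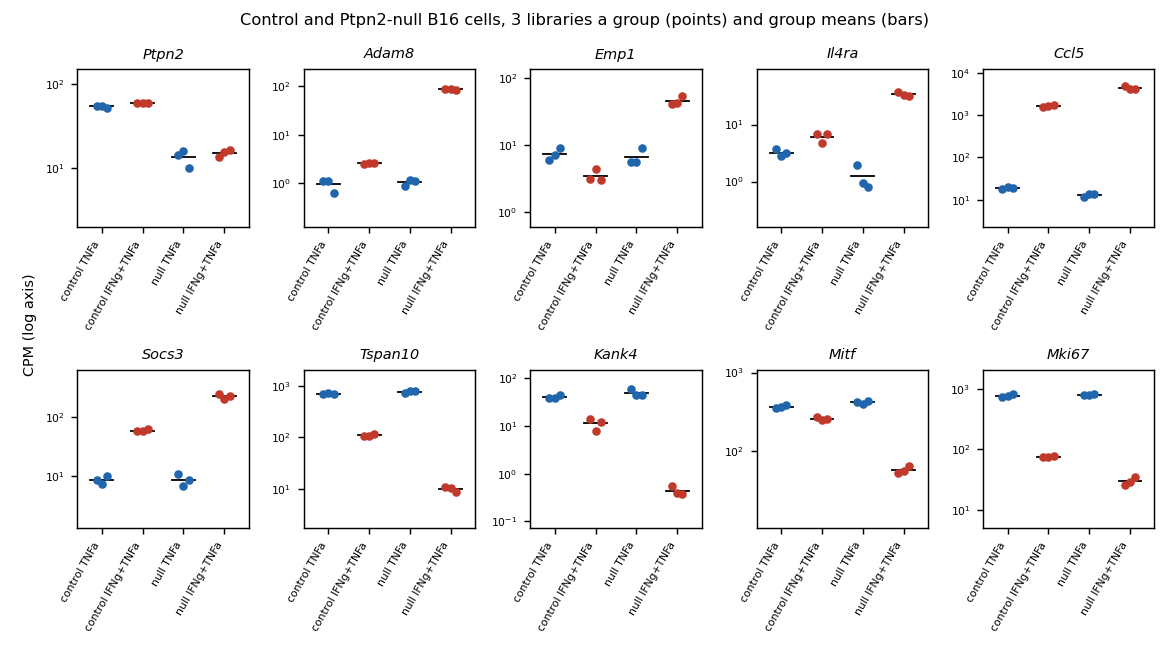
CPM (log axis, libraries at 0 drawn at the bottom line) of 10 genes in control and Ptpn2-null B16 cells given TNFa or IFNg+TNFa, 3 libraries a group. Points are libraries and bars are group means; Adam8 and Emp1 are high only in Ptpn2-null cells given both cytokines, and Tspan10, Kank4 and Mitf are lowest there.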

How the data were processed

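RNA from cells of the B16 line was made into strand-marked, poly(A)-selected libraries and sequenced in pairs, per the labels' protocols. The authors deposited raw counts per gene as 1 table for the 42 B16 libraries (14 groups of 3). Per the submitters' processing notes the tools were bcl2fastq 2.17.1.14, Trimmomatic 0.33, Bowtie2 2.2.4, HTSeq 0.6.1p1 and DESeq2, with the mm10 build. For the counting, both the gene annotation and the strand setting are not given in the sources here, so reads of overlapping and antisense genes may not have been separated.

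The counts were fitted with edgeR 4.0.16 in R 4.3.3 (filterByExpr, TMM scaling, robust quasi-likelihood F test, 1 mean per group over all 42 libraries), and p-values were adjusted by Benjamini and Hochberg over the 11726 tested genes. The difference between effects was tested as an interaction contrast of 4 groups. A group with no count was set to a total of 3 counts for a lower bound of the fold, and genes with 1 to 3 counts are given as a ratio with a 95% exact binomial interval, which covers counting error only. A library stood apart where its residual SD on the log2 scale was above 1.5 times the median over libraries. The test of IFNg added to TNFa was tried on simulated counts with known changes, in far fewer genes than were called here. The differences of effects were not simulated. DESeq2 1.42.0 and the settings of the closing section were tried as alternatives.

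Genes were named by a rule: the 15 largest changes per direction where the gene was called, averaged at least 1 on the log2 CPM scale and did not overlap between groups, the largest changes in each list, a fixed set, and the largest differences of effects (8 per direction for TNFa, 5 for genotype). Further list members were named after their values were seen, and a few genes that the rule or the lists hold are not reported here. The comparison, the 30 lists and the rule were chosen with earlier results of these data known. Older symbols of the table are kept (C1s, Ddx58, Dfna5, Irg1, Pkm2). The labels do not say that replicate numbers pair the libraries. Deviations of same-numbered TNFa and IFNg+TNFa libraries of control cells correlated at 0.0356, 0.0133 and -0.257. Among the groups of the genotype comparison such correlations ranged from -0.611 to 0.505, and what lay behind the larger ones was not tested.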

Additional observations from a re-analysis of the deposited data

Results flagged for a closer look

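In 3002 genes the effect of IFNg differed between cells with and without TNFa, by the interaction test. Genes with 3 counts or fewer in a group compared are given no value in this section. Among the others that the naming rule holds, the largest more positive effects with TNFa, as differences in log2 fold change, were 3.49 for Fyb, 3.35 for Ccl5, 3.20 for Cdsn, 2.69 for Casq2, 2.44 for Kctd12, 2.43 for C1s, 2.42 for Tnfaip3 and 2.37 for Plscr2. The largest more negative ones among them were -2.71 for Gm4961, -2.65 for Anubl1, -2.50 for Depdc1a, -2.49 for Hmgb2, -2.46 for Col1a2, -2.45 for Ska1 and -2.44 for Kbtbd11. In 3059 genes the effect of IFNg on top of TNFa differed between Ptpn2-null and control cells by the same kind of test. Among the genes that the naming rule and this limit on counts leave, the differences were 4.96 for Adam8, 3.85 for Emp1, 3.79 for Il4ra, 3.31 for Cish, -4.88 for Kank4 and -3.61 for Tspan10. The groups of 3 libraries were too small for a test of single outlying values.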

How the results depend on the processing

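The count of genes called for IFNg added to TNFa (7073) was 7074 with RLE size factors, 7092 with no filter on low counts, 7235 with each library's trend on transcript length removed, 6921 when the fit held the compared groups alone and 6767 with DESeq2. It lay between 6399 and 6739 when 1 library was left out, lowest without TNFa replicate 2. The differences with and without TNFa (3002) ranged from 2643 to 2864 with 1 library left out and reached 3461 with only the compared groups. Those between genotypes (3059) ranged from 2677 to 3007 and fell to 2603. With each library's trend on transcript length removed, the differences with and without TNFa numbered 3286 and those between genotypes 3201. Of these, 2925 and 2819 were also called in the main fit. With a replicate block the 3 counts were 7080, 2975 and 3038; the numbers share no documented pairing, and a block is not a paired design here. Without the 5 libraries that stand apart, an alternative chosen after seeing the data, they were 7538, 3736 and 3020. Each of these counts stayed within 1.5 times its main value.

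Of 199 genes called for IFNg added to TNFa and given a value in the text, 193 kept their call under each alternative with an adjusted p. Bcl2, Calr, Dfna5, Idi1, Psmb6 and Relb did not, and the cause was not tested. Tnfaip3, and Chac1 (0.17 with only the compared groups), gained a call in 1 alternative each. None of the 199 changed sign. The 42 differences with and without TNFa and the 11 between genotypes that the text gives as called kept their call under each alternative with an adjusted p. Genes with few counts, such as Lif, Socs2, Fas and Ciita, are limited by the depth of 3498860 to 5632938 counts a library.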
